A study of Mus musculus with 64 samples.

Results

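The comparison of epididymal white adipose tissue (eWAT) from FANKO and wildtype (WT) mice at zeitgeber time (ZT) 18 rested on 8 of the 64 RNA-seq samples of the series, 4 per genotype, and took in all genes of the count table. FANKO mice carry a floxed Nampt allele (Nampt tm1Jtree, exon 3 between loxP sites) and Cre recombinase under the Adiponectin promoter, which is active in adipocytes. The WT animals were Cre-negative littermates from the cross with the floxed line. All animals were adult males fed chow in a light-dark cycle, and ZT 18 is the middle of the dark phase, when mice are active and feed. The other eWAT samples, 4 per genotype at ZT 6, ZT 10 and ZT 22, gave the genotype effects against which that at ZT 18 was set, and the other 32 samples were of brown adipose tissue and entered only the filter, the normalisation and the estimate of the spread. A replicate is 1 labelled sample, and p-values measure the spread between such samples.

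Nampt encodes nicotinamide phosphoribosyltransferase, the rate-limiting enzyme that salvages nicotinamide into NAD+, a redox carrier and the substrate of sirtuins and poly(ADP-ribose) polymerases. Cells answer stress with several transcriptional programmes: the unfolded protein responses of the endoplasmic reticulum and mitochondria, the integrated stress response run by ATF4, the NRF2 antioxidant response, the p53 and heat shock responses, and the interferon response. In the last, type I interferon activates transcription factors that bind interferon-stimulated response elements and raise a set of antiviral genes. Adipocytes, macrophages and lymphocytes of adipose tissue can all express these genes.

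The libraries of ZT 18 held 16108705 to 22476129 counts in WT and 15233867 to 20200294 in FANKO. Mitochondrially encoded genes took 7.16% ± 2.23 (SD, n = 4) of counts in WT and 10.6% ± 2.79 (n = 4) in FANKO (two-sided exact permutation test p = 0.143). With 4 against 4 samples this test cannot give a p below 0.0286. The 11 adipocyte markers were above 1 CPM (normalised counts scaled to library size) in all 8 samples, with the adipocyte hormone gene Adipoq at 1460 to 2760 CPM. WT libraries 2 and 4 stood apart. WT library 4 differed from the other WT libraries by a chi-square per gene of 159 to 179, where other WT pairs gave 30.3 to 44.4 and FANKO pairs 21.6 to 59.4, and no pair was near the value of 1 that sampling noise gives. WT library 2 had a summed level of testis germ cell markers of 374 CPM, against 2.48 to 8.87 CPM in the other WT libraries and 0.251 to 76.6 CPM in FANKO. Counts of calls that moved by over 1.5 times without these libraries are given both ways, and genes whose call was lost without them are named with the count of all calls.

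Nampt mRNA (ENSMUSG00000020572, GRCm38 chromosome 12, 32819545 to 32853349, forward strand) was lower in FANKO eWAT at ZT 18. The 4 WT samples held 310, 179, 262 and 250 CPM and the 4 FANKO samples 114, 108, 125 and 118 CPM. The groups did not overlap. Mean abundance was 250 ± 53.8 CPM (SD, n = 4) in WT and 116 ± 7.16 CPM (n = 4) in FANKO, which is 53.7% lower (log2 fold change -1.11 ± 0.13 (SE), edgeR FDR = 7.72e-09, two-sided exact permutation test p = 0.0286). At ZT 6, ZT 10 and ZT 22 the log2 fold change of Nampt was -0.03, -0.25 and -0.59, and the genotypes overlapped at ZT 6 (112 to 130 CPM in WT, 112 to 124 CPM in FANKO) and at ZT 10 (125 to 160 CPM in WT, 113 to 131 CPM in FANKO). The genotype effect on Nampt at ZT 18 differed from the mean of the other times by -0.82 ± 0.15 on the log2 scale (edgeR FDR = 0.00265), although without ZT 6 among the other times its FDR was 0.0909. Within WT, Nampt was 0.84 higher on the log2 scale at ZT 18 than at the other times (FDR = 1.46e-07), whereas within FANKO the difference was 0.02 (FDR = 0.97), contrasts chosen after values were seen. The counts cover the whole gene and not exon 3 alone, and Gdap10, on the same strand, shares its locus.

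At ZT 18, 2762 of the 20249 genes tested (13.6%) differed between genotypes at an FDR below 0.01 by edgeR's quasi-likelihood test, 1729 of them higher (8.54%) and 1033 lower (5.10%) in FANKO. The same test called 5458 genes (27.0%) at ZT 6, 4953 (24.5%) at ZT 10 and 4168 (20.6%) at ZT 22. Of these, 3420, 3240 and 2545 were higher in FANKO. Counts of list members by time have to be read against this general change. The higher share of the ZT 18 calls was 62.6%, and 50.8% with the size factors of DESeq2 or 28.0% with scaling by library size alone, which placed the median log2 fold change of all genes at -0.19 in place of -0.01. Leaving out WT libraries 2 and 4 together, a choice made after the data were seen, lowered the number of calls to 1272, with 682 higher and 590 lower. Without them the ZT 18 calls of the following genes, described further on, missed the threshold: Bhlhe40, Bhlhe41, Btrc, Cd14, Cd4, Cox7a1, Cox8b, Cpt1a, Cryab, Elovl6, Gclc, Gdf15, Gsn, Hif3a, Hmox1, Hp, Hsd11b1, Hspa5, Hspb8, Ier3, Ifi27l2a, Ifit1, Ighg2b, Il1rn, Irs2, Isg15, Itgax, Klf4, Krt8, Msln, Psmb5, Rsad2, Slc2a4, Sqstm1, Usp18, Wipi1 and Zfp36. Leaving out at least 1 of the 8 libraries singly ended the calls of Adipoq, Bhlhe41, Btrc, Cd14, Col6a2, Cox7a1, Cox8b, Cpt1a, Hif3a, Hsd11b1, Hspb8, Ier3, Ifi27l2a, Ighg2b, Il1rn, Irs2, Itgax, Klf4, Krt8, Msln, Rsad2, Sqstm1, Stc2, Usp18, Wipi1 and Zfp36.

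Among genes whose log2 CPM averaged 1 or more and whose groups did not overlap, the 8 largest increases ran from 3.13 to 4.80 on the log2 scale. Aspg, which encodes an asparaginase, had 2.30, 2.40, 2.65 and 1.12 CPM in WT and 62.8, 65.4, 50.4 and 52.4 CPM in FANKO. All FANKO samples were far above all WT samples (log2 fold change 4.80, edgeR FDR = 4.01e-18). Slc7a11, the cystine-glutamate exchanger, had 0.869, 1.22, 0.576 and 0.351 CPM in WT and 14.6, 3.57, 11.5 and 13.5 CPM in FANKO. Its groups did not overlap, with FANKO library 2 the lowest of its group (log2 fold change 3.84, FDR = 4.68e-09). The phosphatase gene Phospho1 (3.50), the sorting receptor gene Sorcs2 (3.59), Ccdc92 (3.29), the fructose transporter gene Slc2a5 (3.19), the choline transporter gene Slc5a7 (3.15) and the immunoglobulin heavy chain gene Ighg2b (3.13) followed on the log2 scale. Of the 10 B and plasma cell markers edgeR called 0 at ZT 18, with 0 at an unadjusted p below 0.05, and 8 were below 0 (median log2 fold change -0.57).

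Rbp4, the retinol-binding protein released by adipocytes, was among the 8 largest decreases, with 216, 266, 354 and 200 CPM in WT and 55.7, 70.1, 49.2 and 32 CPM in FANKO. Every FANKO sample was below every WT sample (log2 fold change -2.32, edgeR FDR = 9.97e-08). Folh1, a glutamate carboxypeptidase, had 13.1, 12.9, 5.82 and 9.40 CPM in WT and 1.16, 2.41, 1.59 and 1.58 CPM in FANKO, again without overlap (-2.60). Lrg1, a secreted glycoprotein, C6, a terminal complement component, and the glucose transporter gene Slc2a12 had log2 fold changes of -2.57, -2.35 and -2.41, and Dnah3 and Wfdc21 had -2.59 and -2.33.

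Of 311 different genes in 13 stress lists, 111 were called at ZT 18. The shares of all genes tested were 13.6% called, 8.54% higher and 5.10% lower. The ATF4 integrated stress response list was among those with most calls: 18 of its 34 members were higher and 3 lower, with a median log2 fold change of 0.52, where the median of all genes was -0.01. Fgf21, a stress-induced hormone, had 0.348, 0.407, 0.518 and 0.105 CPM in WT and 14.4, 8.04, 4.95 and 6.32 CPM in FANKO. No WT sample reached the FANKO range (log2 fold change 4.65, edgeR FDR = 2.09e-10). Atf4 itself had 79, 78.8, 67.2 and 60.3 CPM in WT and 185, 148, 149 and 160 CPM in FANKO. It too was apart between genotypes (1.17, FDR = 2.25e-06). Gdf15, another stress hormone, and Mthfd2, a mitochondrial folate enzyme, had log2 fold changes of 3.57 and 2.5. The 3 members that were lower were the transsulfuration enzyme Cth (-1.78), the alanine transaminase Gpt2 (-1.12) and Stc2 (-0.75), while Asns, asparagine synthetase, was at -0.13 and not called. For the difference between ZT 18 and the other times edgeR called 0 members, with 5 at an unadjusted p below 0.05 (10.5% of all genes tested), and at those times, in their mean effect, 26 members were higher and 4 lower, where 9334 of all genes (46.1%) were called and 26.1% were called higher. Without WT libraries 2 and 4, 15 members were higher.

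The unfolded protein response list of the endoplasmic reticulum had 13 of 22 members higher and none lower (median log2 fold change 0.45), where 8.54% of all genes were higher. Manf, a secreted endoplasmic reticulum stress protein, had 24.1, 23.3, 28.6 and 25.4 CPM in WT and 63.5, 35.4, 33.8 and 68.6 CPM in FANKO. The FANKO samples spread more widely than the WT samples but did not overlap them (log2 fold change 0.99, edgeR FDR = 5.54e-06). Dnajb9, a lumenal co-chaperone, was higher by 0.96, and Hspa5, the chaperone BiP, by 0.76. Without WT libraries 2 and 4 the list had 9 higher members, and with scaling by library size alone it had 3. The list of mitochondrial protein quality control had 6 of 17 members higher, Atf5 (1.78), a transcription factor of that response, and the matrix chaperone gene Hspa9 (0.88) among them, and none lower.

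Proteasome subunit genes were higher in 13 of 32 members (median 0.32), led by Psmd8 (0.98) and Psmb5 (0.82). At ZT 6, ZT 10 and ZT 22 the counts were 29, 29 and 11, so ZT 18 was closer to ZT 22 (median 0.29) than to ZT 6 and ZT 10 (medians 0.50 and 0.57). The count at ZT 18 fell to 6 without WT library 2 and to 1 without WT libraries 2 and 4. Of the NRF2 and antioxidant list, 8 of 28 members were higher and none lower (median 0.26), with 18, 18 and 14 higher at ZT 6, ZT 10 and ZT 22. Calls over all genes tested changed as well, with 1729 higher at ZT 18 and 3420, 3240 and 2545 at those times. Whether the proteasome or NRF2 counts changed by more than this was not tested. Gclm, the modifier subunit of glutamate-cysteine ligase, was higher by 1.35, the haem oxygenase gene Hmox1 by 1.31, and the sulfiredoxin gene Srxn1 by 1.12 on the log2 scale. Without WT libraries 2 and 4, 3 members were higher. The p53 list had 6 of 27 members higher, including the kinase gene Plk3 (1.61) and the growth arrest gene Gadd45a (1.35), and the hypoxia list 7 of 21, including Bhlhe40 (1.43) and the prolyl hydroxylase gene Egln3 (1.30); each had 3 higher without those libraries.

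Glucocorticoid-responsive genes were mostly on the other side, with 8 of 23 lower and 1 higher (median -0.65), where 5.10% of all genes were lower. Tsc22d3, which encodes the glucocorticoid-induced leucine zipper protein, had 286, 212, 237 and 345 CPM in WT and 86.2, 115, 115 and 114 CPM in FANKO. The ranges were well apart (log2 fold change -1.33, edgeR FDR = 9.1e-05). Hif3a was at -1.65 and Angptl4 is described with the time differences, while Hsd11b1, the enzyme that regenerates active glucocorticoid, was the member that was higher (0.68). The count of lower members was 4 without WT library 4, 5 without FANKO library 1 and 4 without WT libraries 2 and 4, when Hsd11b1 was not called either.

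In the heat shock list, 2 of 26 members (7.69%) were higher at ZT 18, near the 8.54% of all genes tested. They were the small heat shock proteins Cryab (1.16) and Hspb8 (0.62), and the list median was 0.15. At ZT 22, 3 were higher with a median of 0.10, whereas 16 were higher and 1 lower at ZT 6 (median 0.49) and 15 higher at ZT 10 (median 0.50). Without WT libraries 2 and 4, 0 members were called higher at ZT 18. Hspa8, the constitutive HSP70 chaperone, had a log2 fold change of 0.19 at ZT 18 that was not called, one of 0.20 at ZT 22 that was not called either, and 1.05 and 1.08 at ZT 6 and ZT 10. Its WT samples held 454 to 636 CPM at ZT 18, 536 to 863 CPM at ZT 22 and 194 to 286 CPM at ZT 6 and ZT 10. For the difference between ZT 18 and the other times edgeR called 0 members of the list. At an unadjusted edgeR p below 0.05 there were 9 of 26, against 10.5% of all genes tested. The difference was below 0 in 20 of the 26 (median -0.24), against 54.1% of all genes tested. The immediate early list had 2 of 26 members higher (7.69%), Maff (2.34) and Ier3. It had 4 lower (15.4%, against 5.10% of all genes), Klf4 and Zfp36 among them. The count of lower members was 1 without WT library 4 or FANKO library 1 and 0 without WT libraries 2 and 4. In the acute phase list, 2 of 24 members (8.33%) were higher, Orm2 (2.59) and the interleukin-1 receptor antagonist gene Il1rn (2.08). As many were lower (8.33%), Serpina3n (-1.10) and the haptoglobin gene Hp (-0.97), and the counts were 1 and 1 without WT libraries 2 and 4. Autophagy genes had 2 of 20 higher, Sqstm1 and Wipi1, and 2 lower, and 0 in either direction without those libraries.

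**Figure D1:**
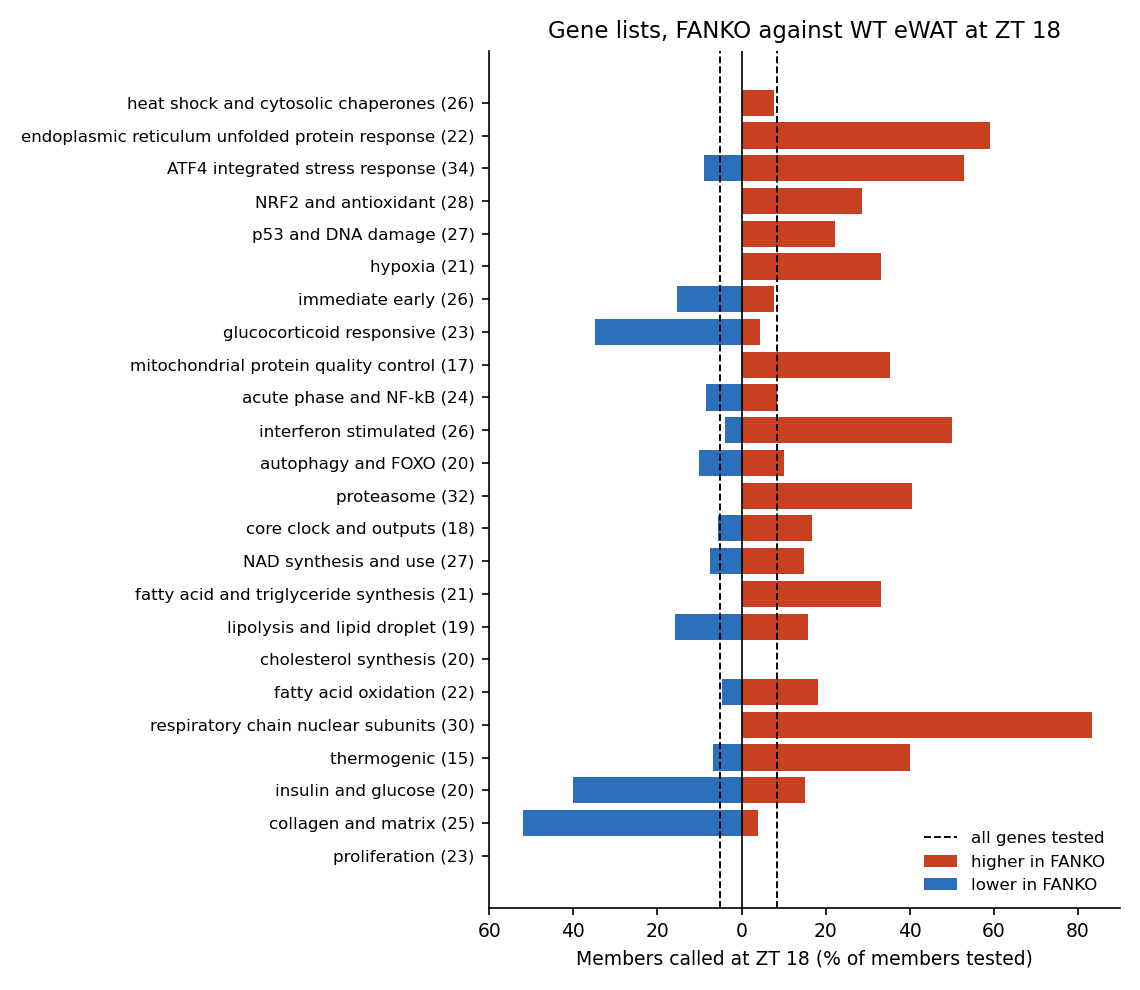
Share of the members of each gene list called at ZT 18 (edgeR FDR below 0.01), in percent of the members tested (in parentheses), higher in FANKO to the right and lower to the left. Dashed lines mark the shares over all genes tested, 8.54% higher and 5.10% lower; the respiratory chain, unfolded protein response and ATF4 lists reach furthest to the right.

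The interferon-stimulated list held 7 of the 9 stress-list genes whose genotype effect at ZT 18 differed from its mean at the other times. All 26 members were tested, and 13 were higher in FANKO at ZT 18, 1 was lower and 12 were not called, with a median log2 fold change of 1.13. At each of ZT 6, ZT 10 and ZT 22, 25 of the 26 were called, all higher, with medians of 3.06, 2.53 and 2.81. The direct test of the difference called 7 members lower (edgeR FDR below 0.01), where 24 of all genes tested were called lower (0.119%) and 2 higher (0.00988%). These were Rsad2, Ifit3, Usp18, Ifit3b, Oasl2, Irf7 and Ifit2. The difference was below 0 in all 26 members (median -1.48, against -0.03 over all genes), and in 54.1% of all genes. It was also below 0 in most members of other lists that were higher in FANKO. These were 21 of 21 fatty acid and triglyceride synthesis, 31 of 32 proteasome, 28 of 30 respiratory chain and 25 of 28 NRF2 members. Their medians were -0.47, -0.16, -0.23 and -0.30. In the p53 list 14 of 27 members were below 0. The interferon list's 1 lower call at ZT 18 was Ifi27l2a (-1.85), named after its value was seen, which was 413 ± 399 CPM (SD, n = 4) in WT and 115 ± 35.1 CPM (n = 4) in FANKO, with overlapping groups, and was not called without WT library 4.

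To show the sequence in which these genes are best known to be read by interferon factors, the 250 bases before the start of each gene were taken from RefSeq (GRCm38.p6) and searched on both strands for TTTCNNTTTC, the core of the interferon-stimulated response element, a motif chosen after values were seen. It occurred in 978 of 32851 promoters (2.98%) and in 13 of the 19 members of the list with an entry. Of the 7 members called for the difference, 6 had an entry and 3 a match, and Usp18 had no entry. The 3 with a match are printed 5′ to 3′ on the gene's own strand, with each match in capitals.
Rsad2: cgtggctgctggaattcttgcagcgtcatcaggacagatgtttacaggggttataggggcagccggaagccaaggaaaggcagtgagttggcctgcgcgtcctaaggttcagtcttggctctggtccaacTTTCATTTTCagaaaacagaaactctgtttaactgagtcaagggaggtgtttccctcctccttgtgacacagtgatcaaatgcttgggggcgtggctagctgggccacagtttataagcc
Ifit3: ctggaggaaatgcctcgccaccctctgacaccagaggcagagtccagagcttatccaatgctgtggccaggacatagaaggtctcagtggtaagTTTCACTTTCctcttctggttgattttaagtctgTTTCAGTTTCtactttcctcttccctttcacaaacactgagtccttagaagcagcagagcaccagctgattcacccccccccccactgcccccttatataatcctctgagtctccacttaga
Ifit3b: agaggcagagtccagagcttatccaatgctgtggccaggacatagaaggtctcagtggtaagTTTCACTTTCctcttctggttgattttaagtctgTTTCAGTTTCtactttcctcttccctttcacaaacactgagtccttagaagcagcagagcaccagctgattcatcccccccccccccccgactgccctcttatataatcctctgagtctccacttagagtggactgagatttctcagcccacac
They lie at chr12:26456453-26456702 (minus strand) for Rsad2, chr19:34583279-34583528 (plus strand) for Ifit3 and chr19:34607707-34607956 (plus strand) for Ifit3b. The match begins 120 bases before the start in Rsad2, 156 and 122 bases before it in Ifit3 and 188 and 154 bases before it in Ifit3b. Ifit3 and Ifit3b share an unbroken run of 169 bases, offset by 32. A match is a run of letters and was not tested as a binding site.

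Rsad2 encodes viperin, a radical SAM enzyme that blocks virus replication. At ZT 18 it had 28.4, 16, 17.5 and 13.0 CPM in WT and 34.6, 67.1, 47.1 and 56.8 CPM in FANKO. The FANKO samples were above the WT samples, the lowest FANKO sample, library 1, by the least (log2 fold change 1.46 ± 0.39 (SE), edgeR FDR = 0.00435). In FANKO it had 261, 145, 439 and 209 CPM at ZT 6. At ZT 10 the FANKO values were 33.2, 127, 219 and 218 CPM, and at ZT 22 they were 173, 313, 271 and 94.3 CPM. All but library 1 of ZT 10 exceeded each FANKO sample of ZT 18. The log2 fold change of Rsad2 at ZT 6, ZT 10 and ZT 22 was 4.45, 3.57 and 3.88, and that at ZT 18 differed from their mean by -2.51 ± 0.46 (FDR = 0.00208).

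Ifit3 and Ifit3b encode closely related proteins of the family that binds viral RNA, and how reads shared by both were counted is not given in the sources used here. Ifit3 had 26.0, 21.1, 21.6 and 6.52 CPM in WT and 17.5, 39.8, 31.2 and 39.9 CPM in FANKO at ZT 18. The groups overlapped through FANKO library 1, and WT library 4 was the lowest of all. The log2 fold change of Ifit3 was 0.78 ± 0.39 (edgeR FDR = 0.144) at ZT 18 and 4.07, 3.01 and 2.87 at ZT 6, ZT 10 and ZT 22, a difference of -2.54 ± 0.46 (FDR = 0.00208). For Ifit3b the values were 9.78, 7.96, 8.41 and 2.07 CPM in WT and 5.65, 9.39, 9.75 and 9.35 CPM in FANKO. These also overlapped, and the log2 fold change at ZT 18 was 0.30 (FDR = 0.635), with a difference from the other times of -2.54 ± 0.47 (FDR = 0.00243).

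Usp18, the protease that removes ISG15 from proteins and restrains the interferon receptor, had 7.69, 5.84, 6.34 and 5.4 CPM in WT and 11.3, 15.1, 16.2 and 17.4 CPM in FANKO at ZT 18. The groups did not overlap, yet all 12 FANKO samples of the other times were higher still, at 20.3 to 131 CPM. The effect was 1.25 ± 0.31 (edgeR FDR = 0.00202) at ZT 18 and 3.56, 3.15 and 2.96 at the other times, and the difference was -1.97 ± 0.36 (FDR = 0.00208).

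Irf7, the transcription factor that amplifies type I interferon production, had 12.9, 11.6, 14.2 and 15 CPM in WT and 21.8, 70.0, 55.7 and 47.5 CPM in FANKO at ZT 18. FANKO library 1 was lowest but above all WT samples (log2 fold change 1.86 ± 0.31, edgeR FDR = 8.02e-06). At ZT 6, ZT 10 and ZT 22 the effect was 3.88, 3.26 and 3.73, a difference of -1.76 ± 0.35 (FDR = 0.00723). Irf7 overlaps Phrf1 on the opposite strand, and the strand setting of the counting is not given in the sources used here. Ifit2 had 16.7, 13.6, 16.2 and 14.5 CPM in WT and 25.2, 42.3, 35.8 and 44.7 CPM in FANKO at ZT 18. These did not overlap, although the effect of 1.28 missed the threshold (FDR = 0.0102), and the difference was -2.15 ± 0.44 (FDR = 0.00782). Oasl2, of the oligoadenylate synthetase-like family, had 15.9, 15.2, 10.9 and 21.6 CPM in WT and 14.6, 27.2, 20.7 and 26.6 CPM in FANKO, with overlap. Its effect was 0.48 (FDR = 0.211) at ZT 18, and its difference was -1.59 ± 0.32 (FDR = 0.00689).

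The members not called for the difference had values on the same side. Ifit1 was higher in FANKO at ZT 18 by 1.96 (edgeR FDR = 0.000246) with a difference of -2.11 (FDR = 0.0192), and Isg15, the ubiquitin-like modifier, was higher by 1.87 (FDR = 0.00166) with a difference of -1.73 (FDR = 0.14). In 22 of the 26 genes, at least 11 of the 12 FANKO samples of the other times exceeded the highest FANKO sample of ZT 18, and in 3, Ifit3, Ifit3b and Usp18, all 12 did. The share of all genes tested with such an order was not computed. The members also varied together between libraries, so these genes do not count separately.

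The lower effect at ZT 18 lay on the FANKO side. Within FANKO, 25 of the 26 members were lower at ZT 18 than at the mean of the other times (edgeR FDR below 0.01; median -1.64), where 1.54% of all genes were called lower. Within WT the same contrast called none of the 26 in either direction, and none had an unadjusted p below 0.05 (median -0.01), where 3.32% and 19.1% of all genes were called. Both contrasts were chosen after values were seen. Leaving out FANKO library 1 of ZT 18, 21 of the 26 were still called lower within FANKO.

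The number of members called for the difference was near the threshold. It was 0 without WT library 1 of ZT 18, 0 without FANKO library 1 of ZT 18, 0 without ZT 6 in the reference, 0 in a fit of the eWAT samples alone, 4 without WT libraries 2 and 4, 11 without FANKO library 1 of ZT 10, 11 by DESeq2 and 0 by limma-voom. Of 47 settings, the difference missed the threshold in 7 for Rsad2, 7 for Ifit3, 6 for Ifit3b, 5 for Usp18, 22 for Irf7, 21 for Oasl2 and 29 for Ifit2. In each of 47 settings the difference was below 0 in all 26 members, with medians from -1.69 to -1.30. The members varied together between libraries. For each of the 7, FANKO library 1 was the lowest of its group at ZT 10 and at ZT 18. Likewise, FANKO library 4 was the lowest at ZT 22 and FANKO library 3 the highest at ZT 6. The settings also share most libraries, so agreement over members and settings is not independent. Set against single times, the effect at ZT 18 was lower than that at ZT 6 in 8 members by edgeR FDR (0.296% of all genes). It differed in 0 members against ZT 10 (0.148% of all genes), with 22 at an unadjusted p below 0.05 (11.4% of all genes). Against ZT 22 it differed in 0 members (0.00% of all genes), with 25 at an unadjusted p below 0.05 (5.69%). At ZT 18 itself, the 13 higher members became 8 without WT library 4 and 3 without WT libraries 2 and 4.

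**Figure D2:**
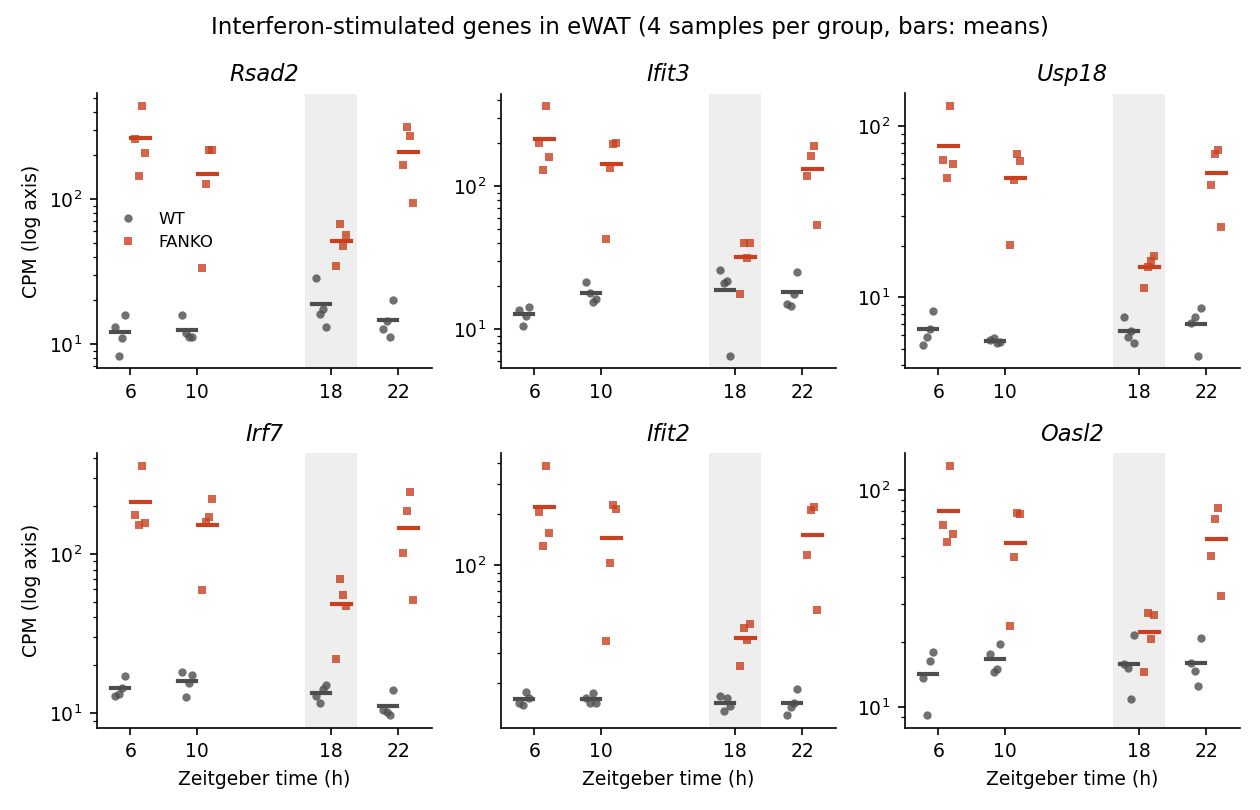
CPM (log axis) of 6 interferon-stimulated genes by zeitgeber time in hours in eWAT of WT (grey circles) and FANKO (red squares), 4 samples per group, with bars for group means and ZT 18 shaded. In Usp18 the FANKO samples of ZT 18, at 11.3 to 17.4 CPM, lie below all 12 FANKO samples of the other times, while the WT samples of ZT 18 lie near those of the other times.

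T and natural killer cell markers moved in the same direction as the interferon list. Their summed level over 14 genes was 7.92 to 17.2 CPM in WT and 18.6 to 30.6 CPM in FANKO at ZT 18, without overlap, and 23.5 to 59.7, 16.7 to 34.0 and 20.9 to 50.1 CPM in FANKO at ZT 6, ZT 10 and ZT 22. Only Cd4 of the 14 (7.14%) was called at ZT 18 (log2 fold change 1.63), near the 8.54% of all genes tested that were higher. At ZT 6, ZT 10 and ZT 22, 11, 10 and 10 were higher. None of the 14 was at 0 in all 8 samples of ZT 18. Among all genes tested, 1729 were higher at ZT 18 and 3420, 3240 and 2545 at ZT 6, ZT 10 and ZT 22. The macrophage list includes Lpl, also in the lipolysis and lipid droplet list described further on, so the sum need not reflect macrophages alone. The macrophage markers summed to 5730 to 8960 CPM in WT and 6410 to 6990 CPM in FANKO. These overlapped, with Gpnmb (2.80) and Itgax (1.21) higher and Cd14 (-0.59) lower of 17 genes. The shares of this list, 11.8% higher and 5.88% lower, were near the 8.54% and 5.10% of all genes tested. In the T and natural killer cell list, edgeR called 0 markers for the difference between ZT 18 and the other times. At an unadjusted edgeR p below 0.05 there were 5 of 14, against 10.5% of all genes tested. The difference was below 0 in 13 of the 14, against 54.1% of all genes tested. Its median was -0.84, against -0.03 over all genes. Neutrophil and mast cell markers summed to 22.9 to 27.0 CPM in WT and 31.4 to 45.0 CPM in FANKO, with Kit (1.30) called, while 5 of the 7 genes tested were below 0 (median log2 fold change -0.58). The part of these cells in the results was not tested, and in bulk tissue fewer cells of a type and less RNA per cell cannot be told apart.

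Markers of progenitors, fibroblasts and mesothelium were lower at ZT 18, where 5.10% of all genes were called lower and 8.54% higher. The progenitor and fibroblast markers summed to 7270 to 11700 CPM in WT and 3960 to 5220 CPM in FANKO, and the mesothelial markers to 300 to 499 CPM in WT and 169 to 249 CPM in FANKO, neither with overlap. Of the progenitor markers 4 were called lower, among them Gsn (-0.97), Pdgfra (-0.78) and Dcn (-0.72), and 6 of 8 mesothelial markers, among them Krt8 (-1.11) and Msln (-1.05). Adipocyte markers summed to 19300 to 27400 CPM in WT and 18700 to 21500 CPM in FANKO, with overlap. Of these 11 genes 5 were lower, Lep (-1.78) and Adipoq (-0.63) among them, and the insulin-responsive glucose transporter gene Slc2a4 was higher (0.87). Beside these, 13 of 25 collagen and matrix genes were lower (median -0.76), among them the crosslinking enzyme Lox (-1.39) and Col6a2 (-1.23), and the macrophage elastase Mmp12 was higher (2.92). The count of lower matrix genes was 5 without WT library 2 and 8 without WT libraries 2 and 4.

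**Figure D3:**
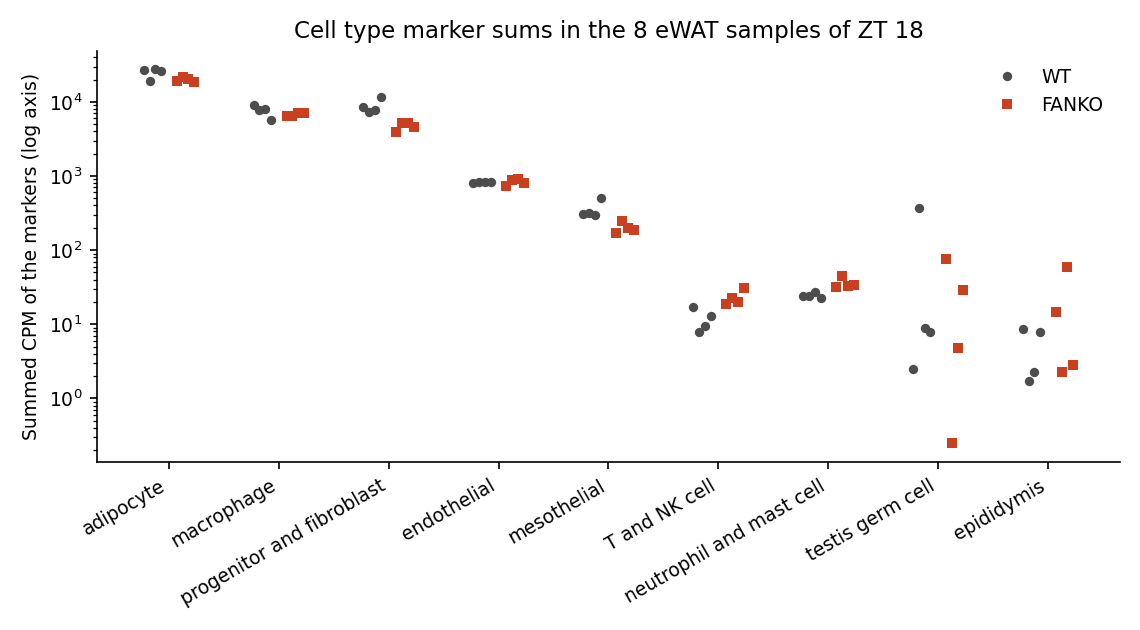
Summed CPM (log axis) of the markers of 9 cell types or tissues in the 8 eWAT samples of ZT 18, 1 point per sample, WT in grey and FANKO in red. T and natural killer cell sums are higher and progenitor and mesothelial sums lower in all FANKO samples, and WT library 2 stands out in testis germ cell markers at 374 CPM.

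Beyond the interferon list, 2 other stress lists had a member called for the difference, and the remaining 10 had none. Of the 26 genes called in all (0.128%), 24 were called lower. In 16 of these the mean effect at the other times was positive and itself called, and in 4 it was negative and called. Angptl4 (ENSMUSG00000002289), an inhibitor of lipoprotein lipase that fasting and glucocorticoids raise, had 240, 230, 235 and 362 CPM in WT and 65.6, 53.9, 87.2 and 90.9 CPM in FANKO at ZT 18. The groups were far apart, with FANKO lower (log2 fold change -1.84 ± 0.30, edgeR FDR = 6.4e-06). At ZT 6 the order was the other way round, with 357 to 656 CPM in FANKO. The effect on Angptl4 was 1.16 (FDR = 0.00149) at ZT 6, 0.87 (FDR = 0.0185) at ZT 10 and -1.47 (FDR = 0.000116) at ZT 22, so that ZT 18 had the sign of ZT 22. The difference from the mean of the 3 was -2.03 ± 0.35 (FDR = 0.00166), and it was -1.54 (FDR = 0.0909) without ZT 6.

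Gclc, the catalytic subunit of glutamate-cysteine ligase, which limits glutathione synthesis, was the member of the NRF2 list that was called. It had 40.2, 31.8, 37.7 and 43.4 CPM in WT and 53.3, 49.8, 62.0 and 53.7 CPM in FANKO at ZT 18. FANKO was higher in every sample (log2 fold change 0.51 ± 0.12, edgeR FDR = 0.000674), by less than the 1.26, 1.20 and 1.22 at the other times. The difference was -0.71 ± 0.13 (FDR = 0.00265), and within WT Gclc was higher at ZT 18 than at the other times by 0.45 (FDR = 0.00111). This contrast within WT was chosen after values were seen. Mean Gclc at ZT 18 and at the other times was 38.3 and 28.1 CPM in WT. In FANKO it was 54.7 and 65.7 CPM, so the means of both genotypes moved. Srxn1 of the same list had a difference of -0.76 that was not called (FDR = 0.0738).

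The smallest p of all genes for the difference was that of Rnf125, a ubiquitin ligase that acts on the RNA sensor RIG-I. It had 22.5, 25.6, 27.5 and 30.8 CPM in WT and 19.3, 20.4, 23.8 and 17.7 CPM in FANKO at ZT 18. The groups overlapped slightly, with FANKO the lower (log2 fold change -0.39, edgeR FDR = 0.0697), whereas the effect at ZT 6, ZT 10 and ZT 22 was 1.35, 0.91 and 0.49. The difference was -1.30 ± 0.18 (FDR = 7.92e-05). Glrx, the glutathione-dependent oxidoreductase glutaredoxin, had 8.87, 8.82, 10.8 and 8.52 CPM in WT and 10.7, 9.70, 8.63 and 8.90 CPM in FANKO. These were intermingled (0.04), against effects of 1.25, 1.56 and 0.61 at the other times, a difference of -1.10 ± 0.18 (FDR = 0.000854). Acer2, an alkaline ceramidase, and Pigl, of glycosylphosphatidylinositol anchor synthesis, had differences of -1.33 ± 0.24 (FDR = 0.00208) and -0.94 (FDR = 0.00208). The others called lower, named after their values were seen, were Thbs1, a matricellular protein (-2.46), the ubiquitin ligase gene Dtx4 (-1.32), Slc22a23, Clec2d, a lectin-like receptor ligand (-0.98), Ifrd1 (-0.90), the bifunctional phosphofructokinase-2 gene Pfkfb1 (-0.87), Hrct1 (-0.75), and the predicted genes B430010I23Rik and Gm45470.

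Ankef1 had a lower mean in FANKO at all 4 times, and ZT 18 was close to ZT 22. At ZT 18 it had 266, 237, 275 and 264 CPM in WT and 105, 93.1, 105 and 96.6 CPM in FANKO, which did not overlap (log2 fold change -1.38, edgeR FDR = 9.52e-14). Its means in WT and FANKO were 253 and 105 CPM at ZT 22, 205 and 171 CPM at ZT 6, and 197 and 152 CPM at ZT 10. The difference was -0.75 (edgeR FDR = 0.00172), and it was -0.56 (FDR = 0.113) without ZT 6. The other direction held 2 genes, called higher for the difference. Btrc, the substrate receptor of a ubiquitin ligase known to act on period proteins of the clock, had 21.4, 21.8, 21.4 and 19.2 CPM in WT and 25.3, 26.8, 25.4 and 24.8 CPM in FANKO. FANKO was higher in every sample (0.29, FDR = 0.00277), while the effect at ZT 6, ZT 10 and ZT 22 was -0.25, -0.26 and 0.07 (difference 0.44 ± 0.09, FDR = 0.00511). Impg2, which fell outside the rule on abundance and was named after its values were seen, was at 0.663 CPM in WT and 3.30 CPM in FANKO (difference 1.95, FDR = 0.00166). Of 47 settings, the difference missed the threshold in 1 for Rnf125, 2 for Angptl4, 2 for Impg2, 3 for Glrx, 3 for Ankef1, 5 for Pigl, 5 for Ifrd1, 6 for Acer2, 8 for Gclc, 8 for Nampt, 9 for Dtx4, 15 for Btrc, 19 for Thbs1, 22 for Hrct1, 23 for Clec2d and 29 for Pfkfb1. Without WT libraries 2 and 4 it missed the threshold for Acer2 (FDR = 0.0103), Btrc (FDR = 0.0309) and Thbs1 (FDR = 0.222). Against ZT 22 alone, no gene was called by edgeR for a difference at ZT 18, although 1153 had an unadjusted p below 0.05. The labels name no batch, and a batch shared by the samples of a time point could not be told apart from time of day.

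**Figure D4:**
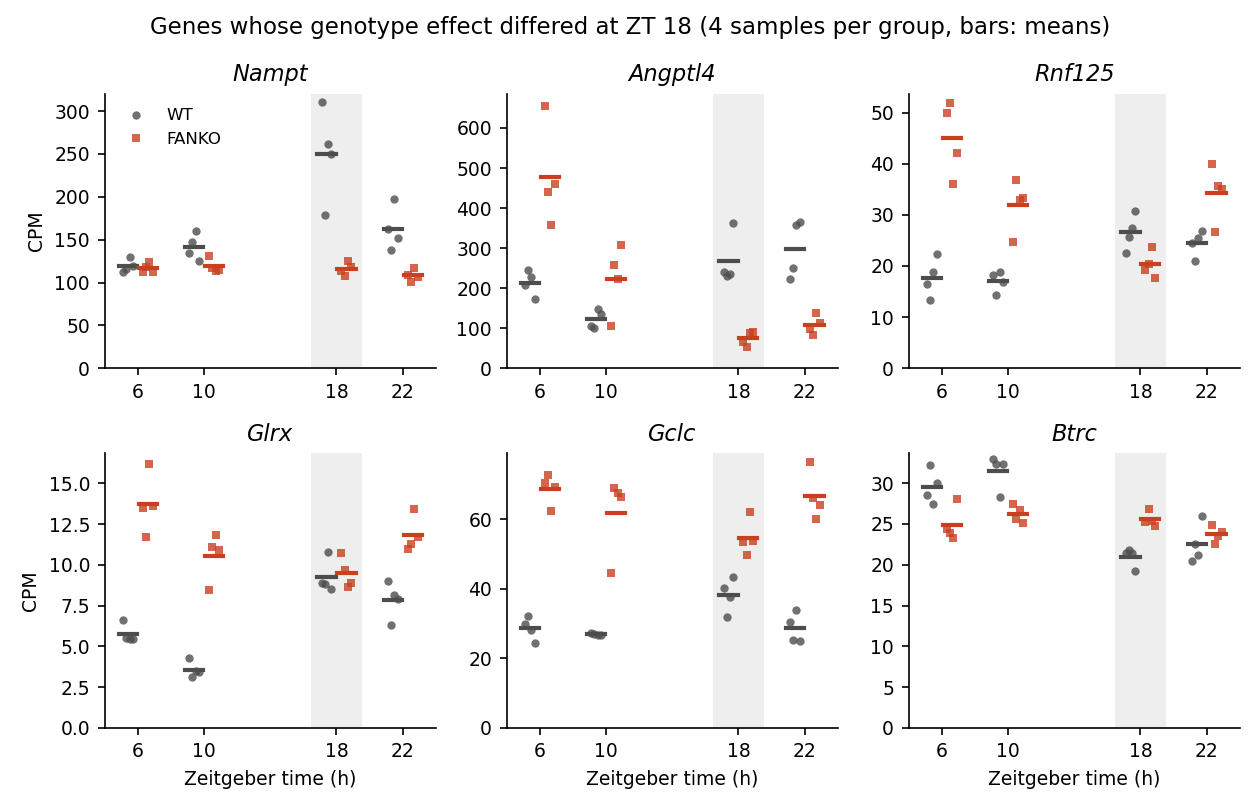
CPM of 6 genes whose genotype effect at ZT 18 differed from the mean of the other times, by zeitgeber time in hours, in WT (grey circles) and FANKO (red squares) eWAT, 4 samples per group, bars for means and ZT 18 shaded. For Nampt the WT samples of ZT 18 rise to 179 to 310 CPM over a flat FANKO level; for Angptl4 the order of the genotypes at ZT 6 is the opposite of that at ZT 18.

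**Figure D5:**
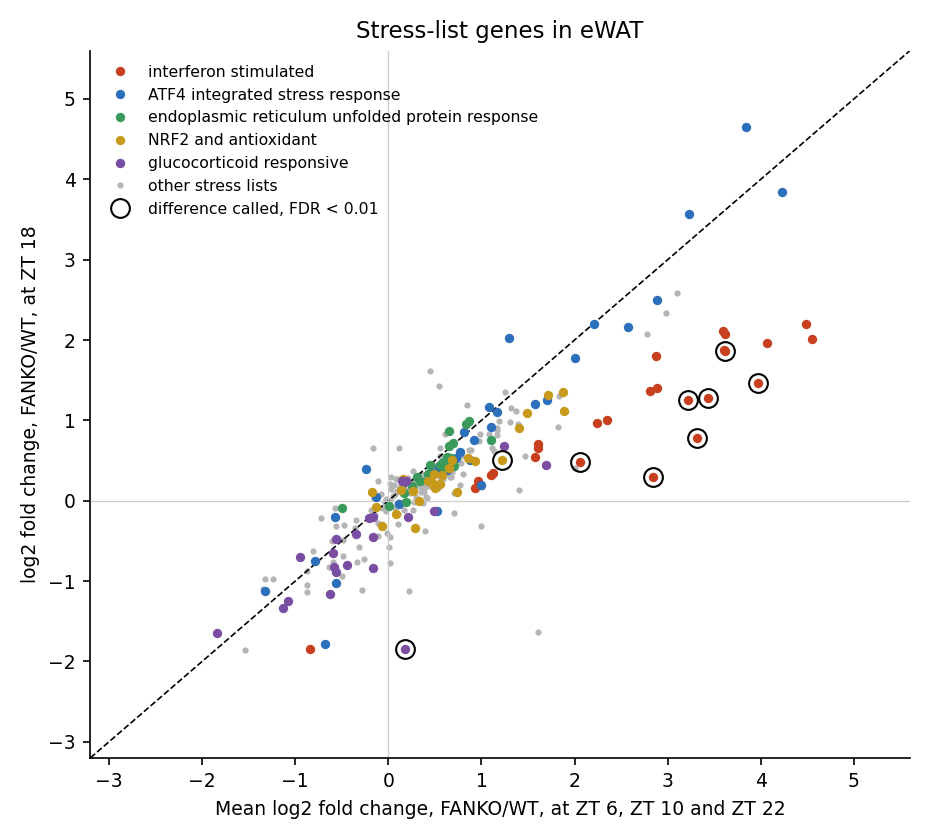
Log2 fold change, FANKO over WT, at ZT 18 against its mean at ZT 6, ZT 10 and ZT 22 for each of the 311 genes of the stress lists, coloured by list; the dashed line marks equal effects and black rings the 9 genes called for the difference. Interferon-stimulated genes lie below the line, and most ATF4 and unfolded protein response genes lie closer to it.

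Genes of energy and lipid metabolism were also called at ZT 18, and of the metabolic genes in these lists Nampt alone was called for the difference. Over all genes tested, 8.54% were higher and 5.10% lower at ZT 18. The respiratory chain list had 25 of 30 members higher (median 0.61), among them the cytochrome oxidase subunit genes Cox8b (1.27) and Cox7a1 (1.25), and all 30 were without overlap between genotypes, as were 21.7% of all genes tested. This count was 11 without WT library 4, 13 without FANKO library 1, 14 with scaling by library size alone and 2 without WT libraries 2 and 4. Fatty acid and triglyceride synthesis had 7 of 21 members higher, with Mogat2 at 2.83 and Elovl6, the elongase of long-chain fatty acids, at 2.57. Elovl6 had 424, 313, 596 and 15.3 CPM in WT and 2880, 2700, 1240 and 1170 CPM in FANKO. WT library 4 lay far below the rest, and 4 members were called without it and 2 without WT libraries 2 and 4. None of 20 cholesterol synthesis genes and none of 23 proliferation genes was called by edgeR, DESeq2 or limma-voom at ZT 18, where 3 and 0 had an unadjusted edgeR p below 0.05 (35.4% of all genes tested).

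Fatty acid oxidation had 4 of 22 members higher, Cpt1b (2.68) and Hadha (1.11) among them, and Cpt1a (-0.53) lower, a call lost without WT library 1, WT library 2 or FANKO library 1. The lipolysis and lipid droplet list had 3 of 19 members higher and 3 lower, where 8.54% of all genes were higher and 5.10% lower. Cidea, a lipid droplet protein of thermogenic fat, was higher by 2.74 and Plin2, a droplet coat protein, by 1.51, while the beta-3 adrenergic receptor gene Adrb3 (-1.09) and Plin4 (-0.61) were lower. Of 15 thermogenic genes 6 were higher and 1, Ebf2 (-0.63), was lower, with Ucp1 at 0.125 CPM in WT and 0.336 CPM in FANKO and not called, and 3 were higher without WT library 4, without FANKO library 1 or without WT libraries 2 and 4. In the insulin list 8 of 20 members were lower, Rbp4 and the insulin receptor substrate gene Irs2 (-1.86) among them, and 3 higher, among them Trib3 (2.16) and the hexokinase gene Hk2 (1.19). Among NAD metabolism genes 4 of 27 were higher, including Nmnat3 (0.93), of NAD synthesis, and Parp1 (0.55), a NAD consumer, and 2 lower, Nampt and the nicotinamide methyltransferase gene Nnmt (-1.59), with 2 higher without WT library 4. Of 18 clock genes, Bhlhe40 (1.43), Dbp (1.38) and Bhlhe41 (1.13) were higher and Per3 (-0.93) was lower, with 1 higher without WT libraries 2 and 4.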

How the data were processed

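The authors extracted RNA from frozen tissue with TRI reagent and a column kit, made stranded total RNA libraries depleted of ribosomal RNA, and sequenced 38-base paired reads. Per the labels and the submitters' processing notes, reads were aligned to GRCm38.p5 with STAR 2.5.3a and counted per gene with featureCounts 1.5.3, with FastQC 0.11.5 and MultiQC 1.2 for quality; the strand and multi-mapping settings are not given in the sources used here. The deposited values are whole-number counts per gene for 52636 genes in 64 samples, not normalized, and samples were grouped by tissue, genotype and zeitgeber time. Symbols were matched to 52403 of the identifiers.

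Counts were fitted in edgeR 4.0.16 (R 4.3.3) with 1 mean per group over all 64 samples and TMM normalization. Genes passed filterByExpr (count minimum 10), which left 20249 genes and took out 32387. Quasi-likelihood tests compared FANKO with WT eWAT at ZT 18, and that effect with the mean effect at ZT 6, ZT 10 and ZT 22, with Benjamini-Hochberg adjustment over all genes and a threshold of 0.01. CPM are TMM-normalized, and fold changes are log2 FANKO over WT. Single values were tested by two-sided exact permutation over samples. In the named genes, Nampt came first, then the 8 largest changes per direction at ZT 18 and the 8 smallest p per direction for the difference (mean log2 CPM of at least 1, no predicted genes; for changes at ZT 18, groups without overlap), up to 6 called members of a stress list and up to 2 of other lists; further members named beside them, such as Asns, Hspa5 and Ucp1, were chosen after values were seen. Some genes that the rule chose are not reported here. The members and lists were chosen with earlier results of these data known. List counts have no test, and 20 list members were not in the tested set. Alternatives were DESeq2 1.42.0, limma-voom (limma 3.58.1), other scalings, filters, sample sets and reference times, and leaving out libraries. The step was tested on simulated data. Promoters came from RefSeq (GRCm38.p6).

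Replicate numbers are shared between genotypes. At ZT 18 the deviations of same-numbered samples correlated by -0.0504, -0.131, -0.0105 and 0.134, and at ZT 22 by 0.0965, 0.137, 0.164 and 0.0332. The mitochondrial share at ZT 18 rose with the number in both genotypes, from 5.15% to 9.64% in WT and from 8.11% to 14.6% in FANKO. At ZT 22 it did so as well, from 3.88% to 10.6% in WT and from 6.11% to 14.3% in FANKO. The same held at ZT 6 in WT, from 5.44% to 10.7%. At ZT 6 in FANKO and at ZT 10 in both genotypes it did not rise at each step. What the numbers stand for is not given in the sources used here, and these correlations cannot decide it. The main fit does not use the numbers.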

Additional observations from a re-analysis of the deposited data

Results flagged for a closer look

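Samples far from the other 3 of their group at ZT 18 were found in 10 of 98 groups of values examined by Dixon's ratio, where chance gives about 1 in 20. In FANKO library 1, Ifit3b was at 5.65 CPM against 9.35 to 9.75 CPM, Tsc22d3 at 86.2 CPM against 114 to 115 CPM, and Plin2 at 1750 CPM against 998 to 1080 CPM. In WT library 4, Angptl4 was at 362 CPM against 230 to 240 CPM, Btrc at 19.2 CPM against 21.4 to 21.8 CPM, and the mesothelial marker sum at 499 CPM against 300 to 312 CPM. In WT library 3, Glrx was at 10.8 CPM against 8.52 to 8.87 CPM. WT library 2 had an adipocyte marker sum of 19300 CPM against 26300 to 27400 CPM and a testis germ cell marker sum of 374 CPM against 2.48 to 8.87 CPM. FANKO library 2 had a neutrophil and mast cell marker sum of 45.0 CPM against 31.4 to 33.6 CPM.

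For 23 of the named genes the genotype effect at ZT 18 differed from its mean at the other times by edgeR's test. On the log2 scale the difference was -2.54 for Ifit3, -2.54 for Ifit3b, -2.51 for Rsad2, -2.15 for Ifit2, -1.97 for Usp18, -1.76 for Irf7 and -1.59 for Oasl2 among interferon-stimulated genes. It was -2.03 for Angptl4, -2.46 for Thbs1, -1.33 for Acer2, -1.32 for Dtx4, -1.30 for Rnf125, -1.10 for Glrx, -0.98 for Clec2d, -0.94 for Pigl, -0.90 for Ifrd1, -0.87 for Pfkfb1, -0.82 for Nampt, -0.75 for Ankef1, -0.75 for Hrct1 and -0.71 for Gclc, and 0.44 for Btrc and 1.95 for Impg2.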

How the results depend on the processing

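For the genotype effect at ZT 18, 2762 genes were called, 1729 higher and 1033 lower. Scaling by library size alone gave 625 higher and 1608 lower, no filter 1119 higher, a fit of the ZT 18 eWAT samples alone 817 (445 higher, 372 lower), leaving out WT libraries 2 and 4 1272 (682 and 590), and a threshold of 0.05 4777 (2822 and 1955). Leaving out 1 library gave 1857 to 2655 genes, 1208 to 1714 higher and 649 to 941 lower, the fewest without FANKO library 1. Of the interferon list, 13 members were higher and 1 lower; limma-voom gave 8 higher, leaving out WT libraries 2 and 4 gave 3 higher and 0 lower, the ZT 18 samples alone 0 lower, and leaving out 1 library 8 to 14 higher and 0 to 1 lower.

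For the difference at ZT 18, 26 genes were called, 2 higher and 24 lower. DESeq2 gave 70 (7 higher, 63 lower), limma-voom 15 lower, library size alone 8 (1 and 7), no filter 1 higher, eWAT samples alone 10 (1 and 9), a reference without ZT 6 0 (0 and 0, with 1496 genes at an unadjusted p below 0.05), without ZT 10 12 (1 and 11) and without ZT 22 125 (23 and 102). A threshold of 0.05 gave 87 (10 and 77), leaving out WT libraries 2 and 4 48 (5 and 43), and leaving out these and FANKO library 1 of ZT 10 84 (8 and 76), the last 2 chosen after seeing the data. Leaving out 1 library gave 9 to 57 genes, 0 to 3 higher and 9 to 54 lower, with 9 without WT library 1 of ZT 18 and 57 without FANKO library 1 of ZT 10. Of the interferon list, 7 members were called; DESeq2 gave 11, a threshold of 0.05 11, library size alone 4, robust dispersion 4, leaving out WT libraries 2 and 4 4, limma-voom 0, eWAT samples alone 0, the reference without ZT 6 0, and leaving out 1 library 0 to 11. The cause of these changes was not tested.

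With the replicate number as a block, 3039 genes were called at ZT 18 and 20 for the difference, 14 of them among the 26, and 3 interferon members. Whether same-numbered samples belong together is not given in the sources used here. A single additive term per number, chosen after seeing the data, gave 2946 and 28. Over 146 results for single genes and up to 47 settings each, none changed direction, 459 fell short of the threshold and 10 newly passed it. With 4 samples per group, differences near the threshold depended on single libraries.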
